A study of Mus musculus with 12 samples.

Results

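The scaffold genes of the postsynaptic density were followed across 4 groups of mouse brain arrays. The genes were Dlg1, Dlg2, Dlg3 and Dlg4, which encode membrane-associated guanylate kinases, Dlgap1 and Dlgap2, which encode their binding partners, and Shank1, Shank2 and Shank3. Every probe set whose platform annotation gave one of these symbols as its only gene was taken, which yielded 19 of the 45037 probe sets tested. They covered 8 of the 9 genes, out of 18193 genes with a probe set of their own: Dlgap1 had 6 probe sets, Dlg1, Dlg2 and Dlg4 had 3 each, and Dlg3, Dlgap2, Shank1 and Shank3 had 1 each. No probe set of Shank2 was analysed here. Where a gene has several, its probe sets are numbered by ascending identifier, and a gene is represented by the probe set with its highest mean over the 12 arrays wherever 1 value is given. Of the 19 probe sets, 16 lay at or above the median of all probe set means (5.89 on the log2 scale), and Dlg1 probe set 2, Dlgap1 probe set 5 and the Shank1 probe set lay below it.

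The study compared 2 mouse genotypes that both lack APLP2, a protein related to the amyloid precursor protein APP. APPsα-DM mice (APPα/αAPLP2-/-) carry an edited App on both alleles, generally described as ending the protein at the alpha-secretase site so that only the secreted ectodomain APPsα remains, and APLP2-KO mice (APLP2-/-) carry intact App. The mice were female, 38 to 40 weeks old and on a C57BL/6 background reached by 6 generations of backcrossing, and no group with intact APLP2 was analysed here. RNA came from hippocampus and from prefrontal cortex, with 3 arrays in each of the 4 groups of genotype and tissue. The series design gives 3 mice per genotype, but the labels do not say that arrays of the 2 tissues with the same replicate number came from 1 animal. Each value is the level of a probe set on a log2 scale, in arbitrary units, so that levels are compared between arrays and never between probe sets.

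Across the excitatory synapse from the release site lies the postsynaptic density, a dense protein sheet that holds glutamate receptors in place. In its usual description it is layered: the Dlg proteins sit under the membrane and bind receptor tails, the Dlgap proteins bind the guanylate kinase domain of the Dlg proteins, and the Shank proteins bind the Dlgap proteins and connect them to Homer and the actin cytoskeleton. Dlg4 encodes PSD-95, the best known of these scaffolds, which is held at the membrane by palmitoylation, and in hippocampus and cortex its amount is tied to the strength and stability of excitatory synapses.

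The labels were checked against App and against tissue markers. App probe set 1 fell by 4.60 log2 units in APPsα-DM hippocampus and fell by 4.67 in APPsα-DM cortex, without overlap between the genotypes. App probe set 2 differed by -1.91 in hippocampus and -1.67 in cortex and App probe set 4 by -0.19 and -0.35, also without overlap, while App probe set 3 differed by 0.05 and -0.11 with overlap in both tissues. All 8 hippocampal marker genes were higher in hippocampus in both genotypes, and of 7 markers of cortical neurons 5 were lower and 1 higher there. The cortex pieces also carried signal of 6 striatal marker genes, whose mean level per array was 8.04 to 8.30 in APPsα-DM hippocampus and 7.83 to 8.23 in APLP2-KO hippocampus, against 10.20 to 10.84 in APPsα-DM cortex and 10.15 to 10.51 in APLP2-KO cortex. The mean of 7 choroid plexus genes varied between arrays of 1 group, from 6.32 to 9.37 in APPsα-DM hippocampus, 6.08 to 8.34 in APLP2-KO hippocampus, 5.31 to 8.32 in APPsα-DM cortex and 5.29 to 7.92 in APLP2-KO cortex. In bulk RNA of this kind, fewer cells of a type and less RNA per cell cannot be told apart.

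Dlg4, which encodes PSD-95, was described by 3 probe sets, all annotated to the same transcript. Dlg4 probe set 1 read 8.67, 8.39 and 8.76 in APPsα-DM hippocampus, 8.72, 8.60 and 8.75 in APLP2-KO hippocampus, 9.17, 9.20 and 9.53 in APPsα-DM cortex and 9.69, 9.98 and 9.65 in APLP2-KO cortex. In cortex all 3 APPsα-DM arrays lay below all 3 APLP2-KO arrays, in hippocampus the genotypes overlapped, and every cortex array lay above every hippocampus array. Dlg4 probe set 2 read 8.04, 6.90 and 8.16 in APPsα-DM hippocampus, 8.24, 8.05 and 8.02 in APLP2-KO hippocampus, 8.45, 8.22 and 8.90 in APPsα-DM cortex and 8.77, 9.71 and 9.0 in APLP2-KO cortex. It followed the same order of groups with a wider spread, and replicate 2 of APPsα-DM hippocampus stood more than 1 log2 unit below the other arrays of its group. Dlg4 probe set 3 read 6.06, 6.17 and 6.37 in APPsα-DM hippocampus, 6.29, 6.32 and 6.67 in APLP2-KO hippocampus, 6.16, 5.58 and 5.94 in APPsα-DM cortex and 6.01, 6.02 and 6.06 in APLP2-KO cortex. Its order of tissues was the opposite, with hippocampus above cortex in APLP2-KO without overlap.

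Dlg2 encodes PSD-93, which is closely related to PSD-95. Dlg2 probe set 3 read 9.13, 9.57 and 9.19 in APPsα-DM hippocampus, 9.34, 9.42 and 9.51 in APLP2-KO hippocampus, 10.31, 10.24 and 10.54 in APPsα-DM cortex and 10.56, 10.55 and 10.51 in APLP2-KO cortex. Cortex lay above hippocampus on every array, and the genotypes overlapped in both tissues. Dlg1 encodes SAP97, a scaffold that binds AMPA receptors and also occurs outside synapses. Dlg1 probe set 1 read 10.40, 10.47 and 10.44 in APPsα-DM hippocampus, 10.48, 10.44 and 10.26 in APLP2-KO hippocampus, 11.10, 11.01 and 11.05 in APPsα-DM cortex and 11.09, 11.10 and 10.96 in APLP2-KO cortex, again with every cortex array above every hippocampus array and with overlapping genotypes. Dlg3 encodes SAP102, which takes part in the transport of NMDA receptors and is prominent at young synapses. The Dlg3 probe set read 9.56, 9.84 and 9.63 in APPsα-DM hippocampus, 9.50, 9.64 and 9.81 in APLP2-KO hippocampus, 9.55, 9.57 and 9.59 in APPsα-DM cortex and 9.62, 9.60 and 9.61 in APLP2-KO cortex. The tissues overlapped in both genotypes.

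Dlgap1 encodes the protein known as GKAP or SAPAP1, which links PSD-95 to Shank. Dlgap1 probe set 6 read 11.54, 11.84 and 11.65 in APPsα-DM hippocampus, 11.60, 11.57 and 11.76 in APLP2-KO hippocampus, 11.45, 11.37 and 11.50 in APPsα-DM cortex and 11.50, 11.56 and 11.54 in APLP2-KO cortex. Hippocampus lay above cortex in both genotypes by a narrow margin. Dlgap2 encodes a protein of the same family. The Dlgap2 probe set read 7.58, 7.48 and 7.45 in APPsα-DM hippocampus, 7.40, 7.42 and 7.61 in APLP2-KO hippocampus, 7.93, 7.82 and 8.16 in APPsα-DM cortex and 7.93, 8.06 and 7.78 in APLP2-KO cortex, with every cortex array above every hippocampus array.

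Shank3 is the member of its family most often linked to autism in humans. The Shank3 probe set read 10.21, 10.43 and 10.23 in APPsα-DM hippocampus, 10.11, 10.30 and 10.48 in APLP2-KO hippocampus, 10.14, 10.28 and 10.22 in APPsα-DM cortex and 10.32, 10.40 and 10.16 in APLP2-KO cortex. The Shank1 probe set, in the dim range of the array, read 4.35, 4.23 and 4.34 in APPsα-DM hippocampus, 4.31, 4.40 and 4.32 in APLP2-KO hippocampus, 4.34, 4.47 and 4.29 in APPsα-DM cortex and 4.17, 4.32 and 4.27 in APLP2-KO cortex. All 4 groups overlapped for both Shank genes. The groups of a gene whose arrays overlapped could not be placed in an order beyond the spread between arrays.

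**Figure D1:**
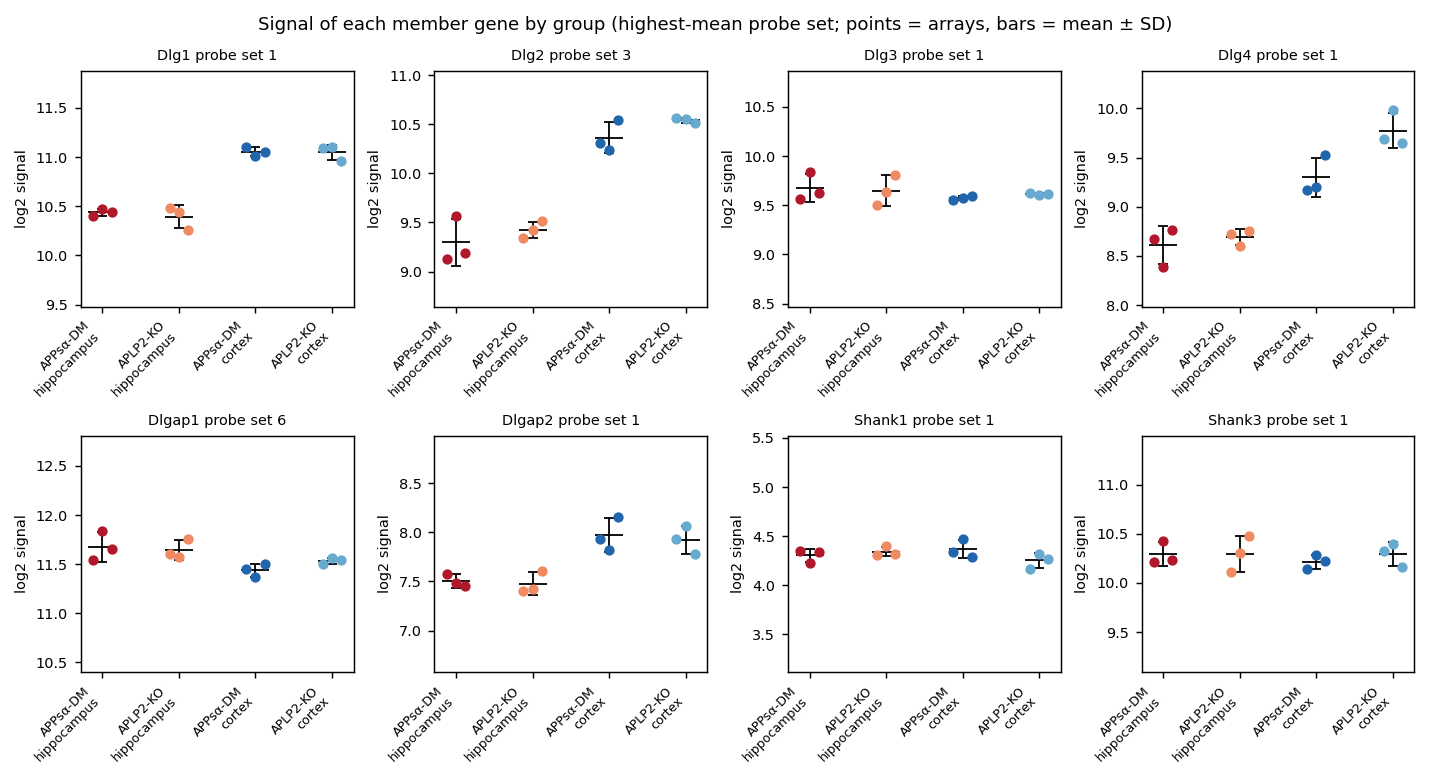
Level of each of the 8 measured genes (y axis, log2 signal; x axis, the 4 groups), by its highest-mean probe set; points are arrays and bars are mean ± SD of 3 arrays, and all panels span the same log2 range. Dlg1, Dlg2, Dlg4 and Dlgap2 stand lower in hippocampus than in cortex, Dlg3 and both Shank genes overlap across the tissues, and Dlg4 is the gene whose cortex arrays separate by genotype with the widest gap.

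The first comparison asked which scaffold genes differed between mice left with secreted APPsα alone and mice with intact APP. By limma with Benjamini-Hochberg adjustment over all probe sets, none of the 19 probe sets passed an adjusted p of 0.05 in hippocampus, in cortex, in the mean of both tissues or in the difference between the tissue effects, and each had an adjusted p of 1. The background was as sparse: 0.00888% of all probe sets passed in hippocampus, 0.00888% in cortex, 0.00888% in the mean of both tissues and 0% for the difference between tissues. At an unadjusted p under 0.05 the members counted 0 in hippocampus (4.11% of all probe sets), 1 in cortex (4.5%), 3 in the mean of both tissues (4.03%) and 1 for the difference between tissues (3.79%). The median difference, APPsα-DM minus APLP2-KO, was -0.01 log2 units in hippocampus and -0.08 in cortex, against 0.00 over all probe sets in each tissue. The estimates ran from -0.41 to 0.09 in hippocampus and from -0.63 to 0.11 in cortex, with 12 of 19 below 0 in each. Several of the 19 belong to the same gene. By the highest-mean probe set, 4 of 8 genes were below 0 in hippocampus (median 0.01) and 5 of 8 in cortex (median -0.06).

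Dlg4 had the lowest of these estimates in both tissues. Dlg4 probe set 1 averaged 9.30 ± 0.20 in APPsα-DM cortex and 9.77 ± 0.18 in APLP2-KO cortex (SD, n = 3 each). The difference was -0.48 ± 0.12 log2 units (SE; 95% interval -0.74 to -0.21), a 1.39-fold lower level in APPsα-DM, with a limma adjusted p of 1, so that it did not pass the test over all probe sets. In hippocampus Dlg4 probe set 1 differed by -0.08 ± 0.12 (95% interval -0.35 to 0.19). Its effect in hippocampus minus that in cortex was 0.39 ± 0.18 (95% interval 0.01 to 0.77, limma adjusted p of 1), so a difference between the tissues did not pass either. Dlg4 probe set 2 differed by -0.41 ± 0.31 in hippocampus and -0.63 ± 0.31 in cortex, and Dlg4 probe set 3 by -0.23 ± 0.14 in hippocampus and -0.13 ± 0.14 in cortex. All 3 Dlg4 probe sets were thus estimated lower in APPsα-DM in both tissues, but not in every alternative setting. Probe set 1 in hippocampus lay above 0 in 3 of 24 settings. Among these it came to 0.02 with array weights and 0.03 without the 3 arrays highest in the 3′ minus 5′ control signal. That signal is a measure of RNA quality described further on. Probe set 3 in cortex came to 0.04 without the 2 cortex arrays high in the choroid plexus transcript Ttr, 0.01 without the 3 arrays highest in the control signal and 0.02 without replicate 2 of APPsα-DM cortex. Probe set 2 in cortex came to -0.36 without replicate 2 of APLP2-KO cortex. Probe sets 1 and 2 also varied together from array to array (r = 0.89 between deviations from the group means, n = 12), and both read the same RNA. Over the 24 alternative settings the cortex difference of Dlg4 probe set 1 lay between -0.59, without replicate 3 of APPsα-DM cortex, and -0.37, without replicate 2 of APLP2-KO cortex, and its lowest adjusted p was 0.657.

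In the mean of both tissues, where each mouse was taken to give 1 value, Dlg4 probe set 1 differed by -0.28 ± 0.09, Dlg4 probe set 2 by -0.52 ± 0.22 and Dlg2 probe set 3 by -0.15 ± 0.06. These were the 3 below an unadjusted limma p of 0.05, each with an adjusted p of 1. The genotypes did not overlap at 0 of the 19 probe sets in hippocampus, where 9.88% of all probe sets did not overlap, and at 4 in cortex, where 8.73% did not. These 4 were the Dlg3 probe set, Dlg4 probe set 1 and Dlgap1 probe sets 2 and 6, all lower in APPsα-DM. For Dlg3 the cortex arrays were so alike that the separation amounted to -0.04 ± 0.09 log2 units, and for Dlgap1 probe sets 2 and 6 to -0.10 ± 0.09 and -0.09 ± 0.08. Shank1 and Shank3 differed by -0.03 ± 0.07 and -0.01 ± 0.10 in hippocampus, and by 0.11 ± 0.07 and -0.08 ± 0.10 in cortex.

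The intervals state how large a difference these arrays could have missed. For Dlg1 probe set 1, measured with the smallest spread of the Dlg genes, the 95% interval of the genotype difference was -0.11 to 0.20 in hippocampus and -0.15 to 0.17 in cortex. Dlg1 lies on chromosome 16, as does the edited App. For Shank3 it was -0.23 to 0.21 in hippocampus and -0.30 to 0.14 in cortex. For Dlg2 probe set 2, measured with a wide spread, it was -1.02 to 0.28 in hippocampus and -0.94 to 0.36 in cortex. Equality of the genotypes was therefore not shown for any member.

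**Figure D2:**
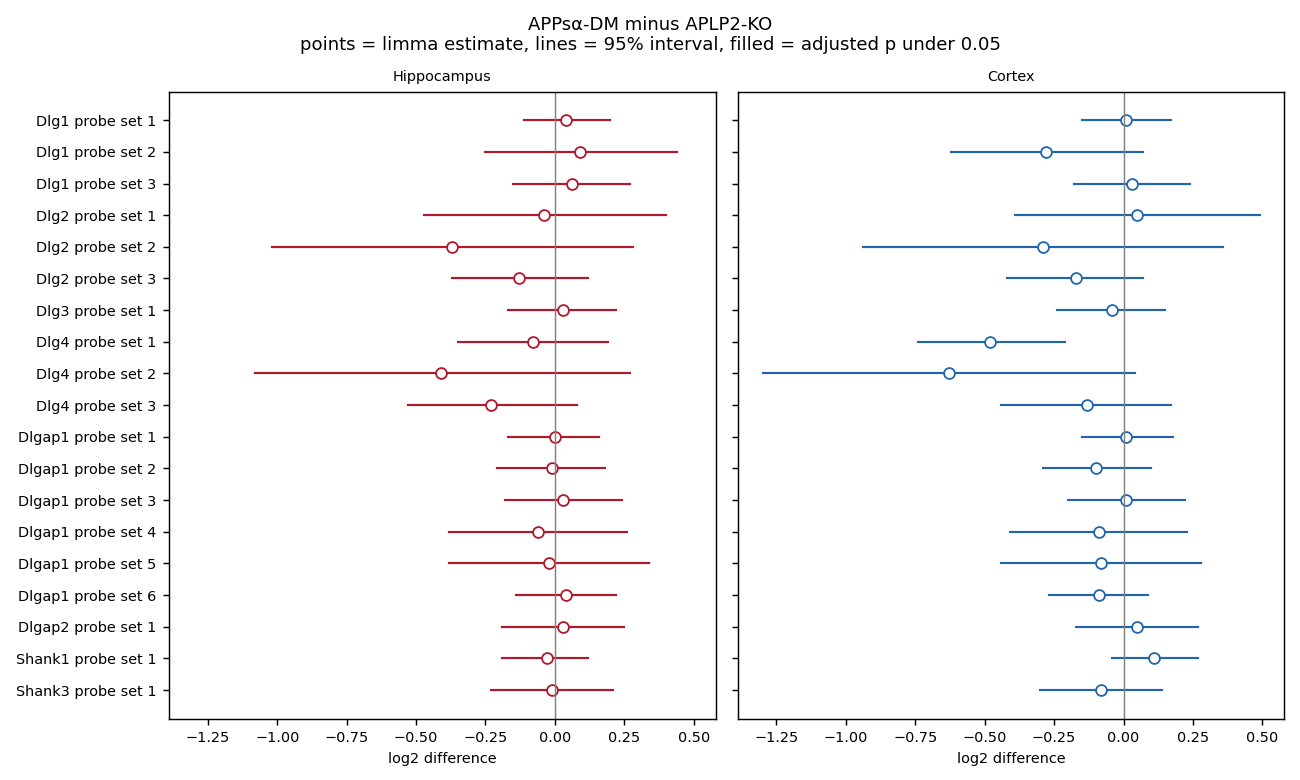
Difference in level, APPsα-DM minus APLP2-KO (x axis, log2 units), of the 19 probe sets (y axis) in hippocampus and in cortex; points are limma estimates, lines 95% intervals, and filled points would mark an adjusted p under 0.05. No point is filled, and only the interval of Dlg4 probe set 1 in cortex, -0.74 to -0.21, excludes 0.

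Markers of cell types were set beside the Dlg4 values in cortex. The 7 markers of cortical neurons were all below 0 in APPsα-DM minus APLP2-KO in cortex, with a median of -0.12, none called and none at an unadjusted limma p under 0.05, and their mean level per array was 8.92 to 9.16 in APPsα-DM cortex and 9.12 to 9.24 in APLP2-KO cortex. Of 6 general neuron markers 5 were below 0, with a mean level of 12.02 to 12.14 in APPsα-DM cortex and 12.08 to 12.18 in APLP2-KO cortex. The 6 endothelial markers were all above 0, with a mean level of 8.39 to 8.68 in APPsα-DM cortex and 8.14 to 8.48 in APLP2-KO cortex, and none was called (2 at an unadjusted p under 0.05). The 6 striatal markers were also all above 0, with a median of 0.21, none called and a mean level of 10.20 to 10.84 in APPsα-DM cortex and 10.15 to 10.51 in APLP2-KO cortex. Of the astrocyte markers 5 of 6 were below 0 (10.10 to 10.23 in APPsα-DM cortex and 10.14 to 10.37 in APLP2-KO cortex, none called, 1 at an unadjusted p under 0.05), and of the oligodendrocyte markers 5 of 5 (11.52 to 11.78 in APPsα-DM cortex and 11.67 to 11.80 in APLP2-KO cortex, none called or at an unadjusted p under 0.05). The markers of these lists all lay at or above the median signal. Of 6 microglia markers 3 were below 0 in cortex (median -0.01). Of 7 choroid plexus markers 2 were below 0 (median 0.13), and 5 of the 7 lay at or above the median signal. None of these 2 lists was called or at an unadjusted limma p under 0.05. In hippocampus the 6 endothelial markers were also all above 0 (median 0.28, none called, 3 at an unadjusted limma p under 0.05). The part of any of these markers in the Dlg4 difference was not tested.

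The second comparison set hippocampus against cortex within each genotype. Dlg1, Dlg2, Dlg4 and Dlgap2 fell in hippocampus in both genotypes, while Dlg3, Shank1 and Shank3 did not pass the test in either. In APPsα-DM 5 of the 19 probe sets were lower and 1 higher in hippocampus by limma (adjusted p under 0.05), where 10.6% of all probe sets passed, 5.42% lower and 5.21% higher. In APLP2-KO 6 were lower and 1 higher, where 12.6% passed, 6.98% lower and 5.62% higher. With 1 probe set per gene, 4 of 8 genes were lower and 0 higher in each genotype. Over all genes 7.34% were lower and 6.59% higher in APPsα-DM, and 9.7% lower and 6.78% higher in APLP2-KO. These shares include dim genes, whereas of the 8 genes only Shank1 lay below the median signal. A share among genes of like signal is not given here. The tissues did not overlap at 8 of 19 probe sets in APPsα-DM, where 27.4% of all did not, and at 11 in APLP2-KO, where 30.2% did not. The median over the 19 probe sets was -0.05 in APPsα-DM and 0.00 in APLP2-KO, against -0.01 in APPsα-DM and 0.01 in APLP2-KO over all probe sets. Of the 19, however, 6 belong to Dlgap1. Over the 8 genes the median was -0.26 in APPsα-DM and -0.22 in APLP2-KO, against -0.02 and -0.01 over all genes. The median size of the difference, without sign, was 0.27 in APPsα-DM and 0.40 in APLP2-KO over the 19 probe sets. Over all probe sets it was 0.11 in each, and 0.12 and 0.13 over those at or above the median signal. The 2 genotypes gave separate sets of arrays for this comparison, since no array entered both, although the fit shared 1 estimate of the spread.

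Dlg2 probe set 3 had the largest fall among the members in each genotype. It averaged 9.30 ± 0.24 in APPsα-DM hippocampus against 10.36 ± 0.16 in APPsα-DM cortex, and 9.42 ± 0.08 in APLP2-KO hippocampus against 10.54 ± 0.03 in APLP2-KO cortex (SD, n = 3 each). The difference was -1.07 ± 0.11 in APPsα-DM (2.09-fold lower, limma adjusted p = 4.92e-05) and -1.11 ± 0.11 in APLP2-KO (2.16-fold lower, adjusted p = 2.95e-05). The other probe sets of Dlg2 did not pass: probe set 1 differed by -0.16 ± 0.20 in APPsα-DM and -0.07 ± 0.20 in APLP2-KO, and probe set 2 by -0.51 ± 0.30 in APPsα-DM and -0.43 ± 0.30 in APLP2-KO. Dlg1 probe sets 1 and 3 fell in step. Dlg1 probe set 1 differed by -0.62 ± 0.07 in APPsα-DM (adjusted p = 0.000117) and -0.65 ± 0.07 in APLP2-KO (adjusted p = 6.27e-05), and Dlg1 probe set 3 by -0.57 ± 0.10 in APPsα-DM (adjusted p = 0.00217) and -0.60 ± 0.10 in APLP2-KO (adjusted p = 0.00127). The dim Dlg1 probe set 2 differed by -0.05 ± 0.16 in APPsα-DM and -0.42 ± 0.16 in APLP2-KO, neither called.

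Dlg4 probe set 1 fell in hippocampus by 0.69 ± 0.12 log2 units in APPsα-DM (1.62-fold lower, limma adjusted p = 0.00274) and by 1.09 ± 0.12 in APLP2-KO (2.12-fold lower, adjusted p = 7.72e-05). The contrast between these 2 falls is the same 0.39 ± 0.18 given above, which did not pass. Dlg4 probe set 2 differed by -0.83 ± 0.31 in APPsα-DM (adjusted p = 0.122) and fell by 1.05 ± 0.31 in APLP2-KO (adjusted p = 0.0433). That last call was lost in 9 of 23 alternative settings, with an adjusted p of up to 0.165 without replicate 2 of APLP2-KO cortex. Dlg4 probe set 3 differed the other way, by 0.31 ± 0.14 in APPsα-DM (adjusted p = 0.219) and 0.40 ± 0.14 in APLP2-KO (adjusted p = 0.0919), neither called. The direction for Dlg4 as a gene thus rests on probe sets 1 and 2, and the probe sequences that might tell the 3 apart were not used here.

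Dlgap2 differed by -0.46 ± 0.10 in APPsα-DM (limma adjusted p = 0.00934) and -0.44 ± 0.10 in APLP2-KO (adjusted p = 0.0106), and the APLP2-KO call was lost without replicate 2 of APLP2-KO cortex (-0.37, adjusted p = 0.0517). Dlgap1 gave the one higher call. Dlgap1 probe set 5, which lies below the median signal, read 5.61, 5.75 and 6.18 in APPsα-DM hippocampus against 5.13, 5.0 and 5.07 in APPsα-DM cortex, and 5.46, 6.12 and 6.00 in APLP2-KO hippocampus against 5.28, 5.05 and 5.11 in APLP2-KO cortex. The tissues did not overlap in either genotype, and the spread was wider in hippocampus. The difference was 0.78 ± 0.17 in APPsα-DM (1.72-fold higher, adjusted p = 0.0085) and 0.71 ± 0.17 in APLP2-KO (1.64-fold higher, adjusted p = 0.0126). The call was lost in 2 settings in APPsα-DM and 4 in APLP2-KO, with an adjusted p of up to 0.0667 in APPsα-DM and 0.0609 in APLP2-KO. Dlgap1 probe sets 6 and 2 did not pass: probe set 6 differed by 0.24 ± 0.08 in APPsα-DM (adjusted p = 0.0991) and 0.11 ± 0.08 in APLP2-KO (adjusted p = 0.485), and probe set 2 by 0.19 ± 0.09 in APPsα-DM and 0.11 ± 0.09 in APLP2-KO. Dlgap1 probe sets 1, 3 and 4 did not pass either. Probe set 1 differed by -0.02 ± 0.08 in APPsα-DM and -0.00 ± 0.08 in APLP2-KO, and probe set 3 by 0.03 ± 0.10 and 0.01 ± 0.10. Probe set 4 differed by 0.27 ± 0.15 in APPsα-DM and 0.24 ± 0.15 in APLP2-KO.

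Dlg3 differed by 0.11 ± 0.09 log2 units in APPsα-DM (95% interval -0.08 to 0.30) and 0.04 ± 0.09 in APLP2-KO (-0.16 to 0.23). Shank3 differed by 0.08 ± 0.10 in APPsα-DM (-0.14 to 0.30) and 0.00 ± 0.10 in APLP2-KO (-0.22 to 0.22). Shank1 differed by -0.05 ± 0.07 in APPsα-DM (-0.21 to 0.10) and 0.09 ± 0.07 in APLP2-KO (-0.06 to 0.25). For these 3 genes the intervals stayed within 0.30 log2 units of 0, whereas those of Dlg1 probe set 1, Dlg2 probe set 3 and Dlg4 probe set 1 lay wholly below -0.41. Since the cortex pieces held striatal signal, as given above, the tissue differences compare hippocampus with that mixture, and the part of the striatal signal in them was not tested.

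**Figure D3:**
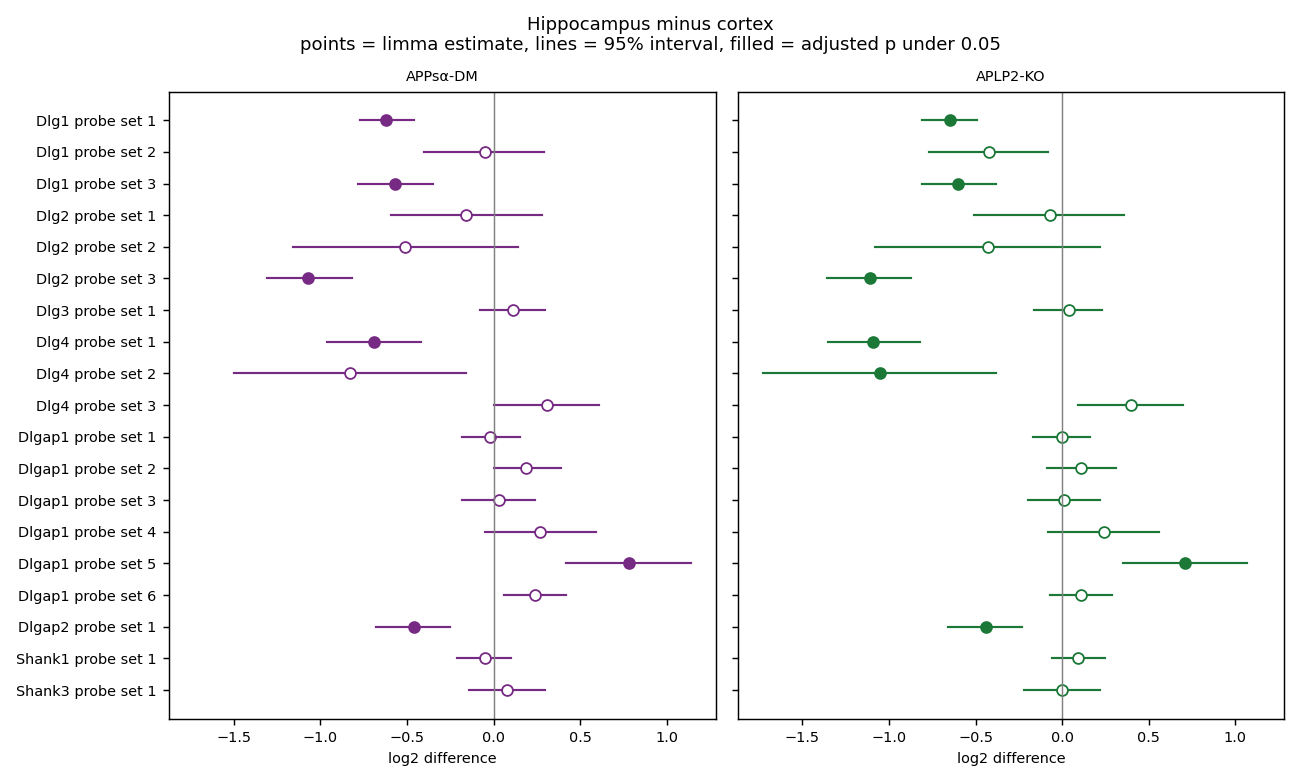
Difference in level, hippocampus minus cortex (x axis, log2 units), of the 19 probe sets (y axis) in APPsα-DM and in APLP2-KO; points are limma estimates, lines 95% intervals, and filled points have an adjusted p under 0.05. The filled points are 5 lower and 1 higher in APPsα-DM and 6 lower and 1 higher in APLP2-KO, and Dlg4 probe set 3 lies on the other side of 0 from Dlg4 probe sets 1 and 2.

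Promoter sequences were looked up for the member genes, among them those whose highest-mean probe sets fell in hippocampus, to show whether they share simple promoter features. RefSeq promoters (GRCm38.p6, 300 bases each, most of them before the transcript start) were matched for 6 of the 9 genes (Dlg1, Dlg2, Dlg3, Dlg4, Dlgap1 and Shank3), with 15 start sites in all. The first listed start of Dlg1 and of Dlg2 and all 3 listed starts of Dlg4, the gene whose probe sets disagreed, are printed below, each on the + strand, with matches to the GC box (GGGCGG) and to the core of the cAMP response element (TGACG) on either strand in capitals.
Dlg1 start 1 (chr16:31663685-31663984): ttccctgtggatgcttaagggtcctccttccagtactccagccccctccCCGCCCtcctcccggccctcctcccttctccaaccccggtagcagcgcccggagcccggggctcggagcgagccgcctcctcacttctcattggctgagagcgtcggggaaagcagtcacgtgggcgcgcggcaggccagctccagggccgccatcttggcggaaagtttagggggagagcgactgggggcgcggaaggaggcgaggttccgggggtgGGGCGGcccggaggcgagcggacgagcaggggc
Dlg2 start 1 (chr7:91090536-91090835): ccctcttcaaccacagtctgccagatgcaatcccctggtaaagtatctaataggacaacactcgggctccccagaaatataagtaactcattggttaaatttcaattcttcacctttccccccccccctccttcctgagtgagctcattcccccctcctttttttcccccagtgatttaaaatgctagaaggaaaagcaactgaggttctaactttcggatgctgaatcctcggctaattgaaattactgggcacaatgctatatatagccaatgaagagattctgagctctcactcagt
Dlg4 start 1 (chr11:70016953-70017252): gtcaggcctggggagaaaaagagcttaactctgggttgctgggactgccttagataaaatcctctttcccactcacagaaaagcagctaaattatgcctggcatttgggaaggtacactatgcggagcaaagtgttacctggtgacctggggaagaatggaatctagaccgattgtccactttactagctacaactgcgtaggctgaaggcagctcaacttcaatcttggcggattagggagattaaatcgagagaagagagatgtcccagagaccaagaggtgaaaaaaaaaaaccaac
Dlg4 start 2 (chr11:70018355-70018654): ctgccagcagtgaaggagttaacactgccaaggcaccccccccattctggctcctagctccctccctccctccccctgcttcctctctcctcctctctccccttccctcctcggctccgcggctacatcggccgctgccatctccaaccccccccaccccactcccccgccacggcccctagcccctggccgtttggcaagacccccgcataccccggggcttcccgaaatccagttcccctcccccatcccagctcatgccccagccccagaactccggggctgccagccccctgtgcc
Dlg4 start 3 (chr11:70023732-70024031): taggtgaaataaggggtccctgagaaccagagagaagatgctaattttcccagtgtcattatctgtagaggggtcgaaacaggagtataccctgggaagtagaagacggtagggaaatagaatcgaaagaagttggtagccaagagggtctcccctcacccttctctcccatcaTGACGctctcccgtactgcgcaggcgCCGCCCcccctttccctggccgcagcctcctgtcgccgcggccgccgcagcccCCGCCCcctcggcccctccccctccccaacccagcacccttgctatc

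Promoter composition varied among the starts of Dlg1 and of Dlg4. Dlg1 start 1 was 71.0% G and C and held 2 GC boxes, start 2 was 47.3% and held 1, and starts 3 and 4 were 40.3% and 33.7% and held neither motif. The 3 starts of Dlg2 were 44.7%, 46.0% and 43.0% G and C and held neither motif. The 3 starts of Dlg4 were 46.3%, 69.0% and 60.0% G and C, and start 3 held 2 GC boxes and 1 cAMP response element core while starts 1 and 2 held neither. The Shank3 promoter, of a gene that did not differ between the tissues by the test, was 81.0% G and C and held 4 GC boxes, against a median of 52.7% G and C over all 32851 promoters. A GC box was present in 5 of the 15 member promoters and in 35.7% of all promoters, and a cAMP response element core in 2 of 15 and in 20.8% of all. E-boxes (CACGTG) were present in 3 of 15 and 7.15% of all, and TATA boxes (TATAAA) in 2 of 15 and 13.6% of all. A match describes letters in the window only, and the start that is used in these tissues was not measured.

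Several member probe sets tracked a measure of RNA quality. Labelling on these arrays starts at the 3′ end of the transcript, so the signal of control probe sets at the 3′ end minus that at the 5′ end of the same transcript is larger where the copies are shorter. Its mean over the controls for beta-actin, Gapdh and Pcx was 1.00, 1.34 and 1.10 in APPsα-DM hippocampus, 0.96, 1.05 and 1.08 in APLP2-KO hippocampus, 1.15, 1.48 and 1.19 in APPsα-DM cortex and 1.38, 1.12 and 1.19 in APLP2-KO cortex (log2 units). Replicate 2 of APPsα-DM hippocampus, replicate 2 of APPsα-DM cortex and replicate 1 of APLP2-KO cortex had the 3 highest values. Deviations of each array from its group mean were correlated with this measure over the 12 arrays, for 19 probe sets, with exact two-sided permutation tests within groups and adjustment over the 19. Dlg2 probe set 2 had r = -0.97 and rho = -0.99 (exact permutation p = 0.000772 for each, the smallest possible, adjusted p = 0.0147 for rho), and r was -0.93 without the 2 arrays farthest from the median. Dlgap1 probe set 4 had r = -0.96 and rho = -0.92 (exact permutation p = 0.00309 and 0.0054), and r was -0.90 without those 2 arrays.

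Of the 19 members 5 had an r of -0.8 or lower, against 3.69% of all probe sets, whose median was 0.06. Besides these, they were Dlg2 probe set 1 (r = -0.85), Dlg1 probe set 3 (r = -0.81) and Dlg4 probe set 2 (r = -0.81). Dlg4 probe set 1 had r = -0.57, Dlg2 probe set 3 r = 0.33 and Dlg1 probe set 1 r = -0.13. The Dlg3 probe set ran the other way, with r = 0.57 and rho = 0.59 (exact permutation p = 0.0139 and 0.0687, adjusted p = 0.044 and 0.217). Members called between the tissues were thus found both among those that tracked the measure, as Dlg1 probe set 3, and among those that did not, as Dlg2 probe set 3. Dlg2 probe set 2 and Dlg4 probe set 2 also had the widest spreads within groups among the members, with residual SDs of 0.448 and 0.462 log2 units against a median of 0.118 over all probe sets. With the measure as a covariate, an alternative chosen after seeing the data, Dlg2 probe set 2 differed between hippocampus and cortex by -0.88 in APPsα-DM (limma adjusted p = 0.000149) and -1.02 in APLP2-KO (adjusted p = 0.000104), and Dlg4 probe set 2 by -1.15 in APPsα-DM (adjusted p = 0.00385). In APLP2-KO the measure itself was lower on every hippocampus array (0.96, 1.05 and 1.08) than on every cortex array (1.38, 1.12 and 1.19). In APPsα-DM the tissues overlapped in it. Measure and tissue were therefore partly confounded, and the covariate fit cannot fully separate them. Without the covariate Dlg2 probe set 2 differed by -0.51 in APPsα-DM and -0.43 in APLP2-KO, and Dlg4 probe set 2 by -0.83 in APPsα-DM. Without the 3 arrays highest in the measure, the hippocampal genotype difference was 0.03 for Dlg4 probe set 1 and -0.01 for Dlg4 probe set 2.

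**Figure D4:**
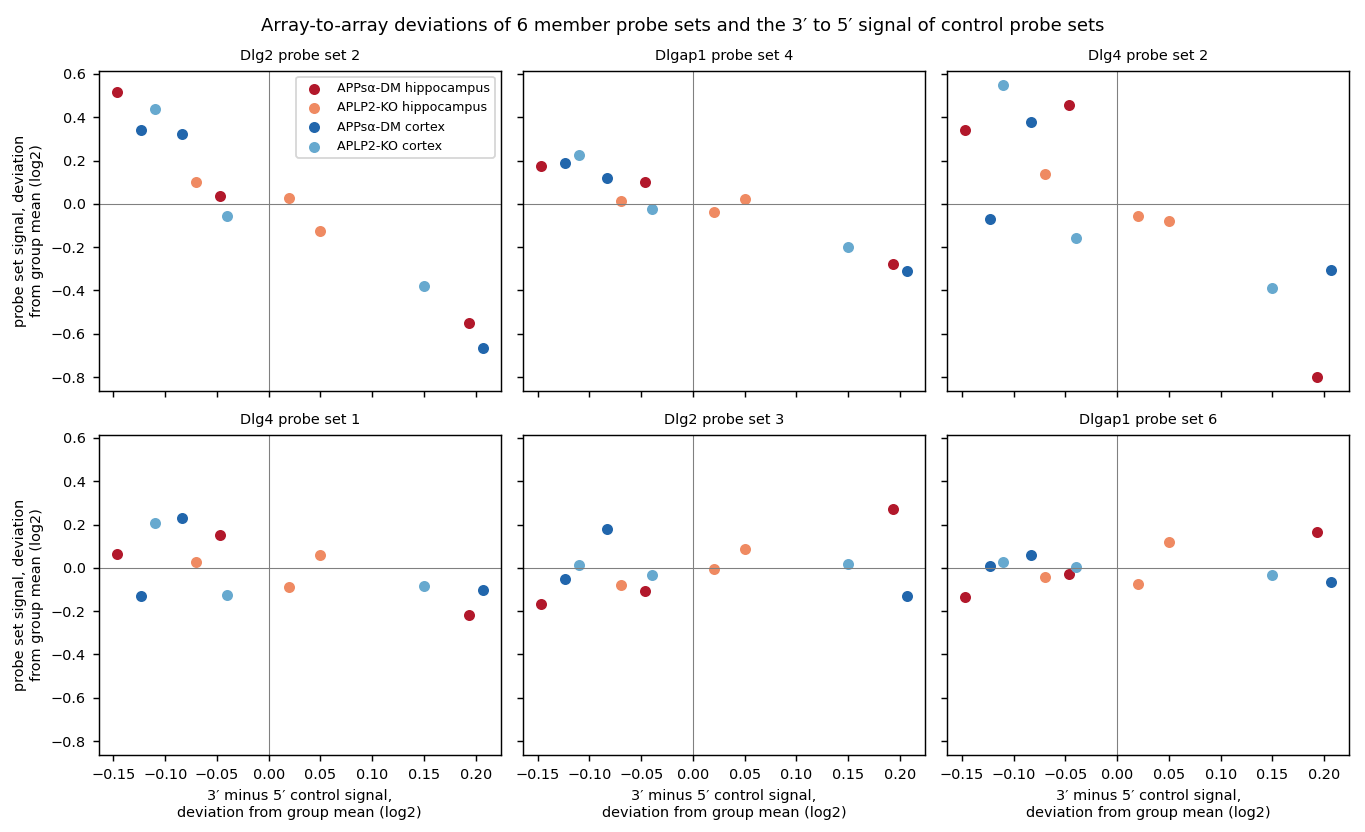
Deviation of 6 member probe sets from their group mean (y axis, log2 units) against the deviation of the 3′ minus 5′ control signal from its group mean (x axis, log2 units); each point is 1 of 12 arrays, coloured by group. Dlg2 probe set 2 and Dlgap1 probe set 4 fall along a line (r = -0.97 and -0.96), Dlg4 probe set 2 follows more loosely (r = -0.81), and Dlg2 probe set 3 does not fall with the measure (r = 0.33).

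Probe sets of 1 gene agreed to unequal degrees, which bears on how far each gene can be read from 1 of them. Over all 12 arrays Dlg1 probe sets 1 and 3 correlated at r = 0.96, Dlg4 probe sets 1 and 2 at 0.91, and Dlgap1 probe sets 2 and 6 at 0.96. These were the highest pairs of their genes. The dim Dlg1 probe set 2 correlated with probe sets 1 and 3 at 0.50 and 0.38. Among the Dlgap1 pairs r went down to -0.02, for probe sets 1 and 4. Dlg4 probe set 3 ran against probe set 1 (r = -0.50), and Dlg2 probe set 3 was only loosely tied to probe sets 1 and 2 of the gene (r = 0.23 and 0.49). These are descriptions, as arrays of 1 tissue share its mean and arrays of 1 RNA share its quality.

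The genes whose levels ran most like each member over the 12 arrays were read from 11868 candidate genes at or above the median signal. For Dlg1 they were Nlk (r = 0.996) and Cobl (r = 0.995), and for Dlg2 Phactr1 (r = 0.993) and Kcnh3 (r = 0.985). For Dlg4 they were Pigt (r = 0.971) and Tatdn2 (r = 0.969), and for Dlgap2 Slmap (r = 0.970) and B3gnt2 (r = 0.962). For the genes without a called tissue difference at their highest-mean probe set, the closest were Nova2 (r = 0.960) and Adgrb2 (r = 0.915) for Dlg3, Tfam (r = 0.953) and Dagla (r = 0.948) for Dlgap1, Mink1 (r = 0.947) and Clcn7 (r = 0.919) for Shank3, and A930016O22Rik (r = 0.894) and Exosc7 (r = 0.864) for Shank1. For a gene with a large step between the tissues, r over all 12 arrays is set mainly by that step.

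Other genes of the excitatory postsynaptic density were set beside the scaffolds, by the highest-mean probe set of each. The list held 28 genes with a probe set used here. By limma none of the 28 differed between the genotypes at an adjusted p under 0.05 in either tissue or in the mean of both. At an unadjusted p under 0.05, 1 passed in each of these (4.11% of all probe sets in hippocampus, 4.5% in cortex, 4.03% in the mean). That gene was Homer2, whose product binds Shank and metabotropic glutamate receptors, with -0.23 ± 0.09 in hippocampus, -0.20 ± 0.09 in cortex and -0.22 ± 0.06 in the mean of both tissues, where its limma adjusted p was 1. Between tissues 7 were higher and 10 lower in hippocampus in APPsα-DM, and 9 higher and 10 lower in APLP2-KO. Over all genes 6.59% were higher and 7.34% lower in APPsα-DM, and 6.78% higher and 9.7% lower in APLP2-KO. These shares include dim genes, whereas all 28 genes lay at or above the median signal. The median over the 28 was -0.09 in APPsα-DM and -0.12 in APLP2-KO, against -0.02 and -0.01 over all genes.

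The Homer proteins bind Shank, and the 3 Homer genes did not move one way. Homer3 rose in hippocampus by 1.82 ± 0.10 log2 units in APPsα-DM and 1.88 ± 0.10 in APLP2-KO (3.54-fold and 3.67-fold higher), Homer2, named after its values were seen, rose by 0.42 ± 0.09 in APPsα-DM and 0.45 ± 0.09 in APLP2-KO, and Homer1 fell by 0.74 ± 0.08 in APPsα-DM and fell by 0.60 ± 0.08 in APLP2-KO. Lrrtm1, a postsynaptic adhesion protein, rose by 1.09 ± 0.07 in APPsα-DM and 1.16 ± 0.07 in APLP2-KO. Cttn, which encodes the actin-binding protein cortactin that Shank binds, rose by 0.55 ± 0.06 in APPsα-DM and 0.59 ± 0.06 in APLP2-KO. Dynll2, a dynein light chain that binds the Dlgap proteins, fell by 0.90 ± 0.11 in APPsα-DM and 0.98 ± 0.11 in APLP2-KO. Of the genes for AMPA receptor auxiliary subunits on the list, 3 are named here after their values were seen. Cacng2 fell by 0.39 ± 0.10 in APPsα-DM and 0.62 ± 0.10 in APLP2-KO, Cacng3 fell by 0.58 ± 0.11 in APPsα-DM and 0.66 ± 0.11 in APLP2-KO, and Cacng8 fell by 0.72 ± 0.12 in APPsα-DM and differed by -0.38 ± 0.12 in APLP2-KO, which did not pass.

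**Figure D5:**
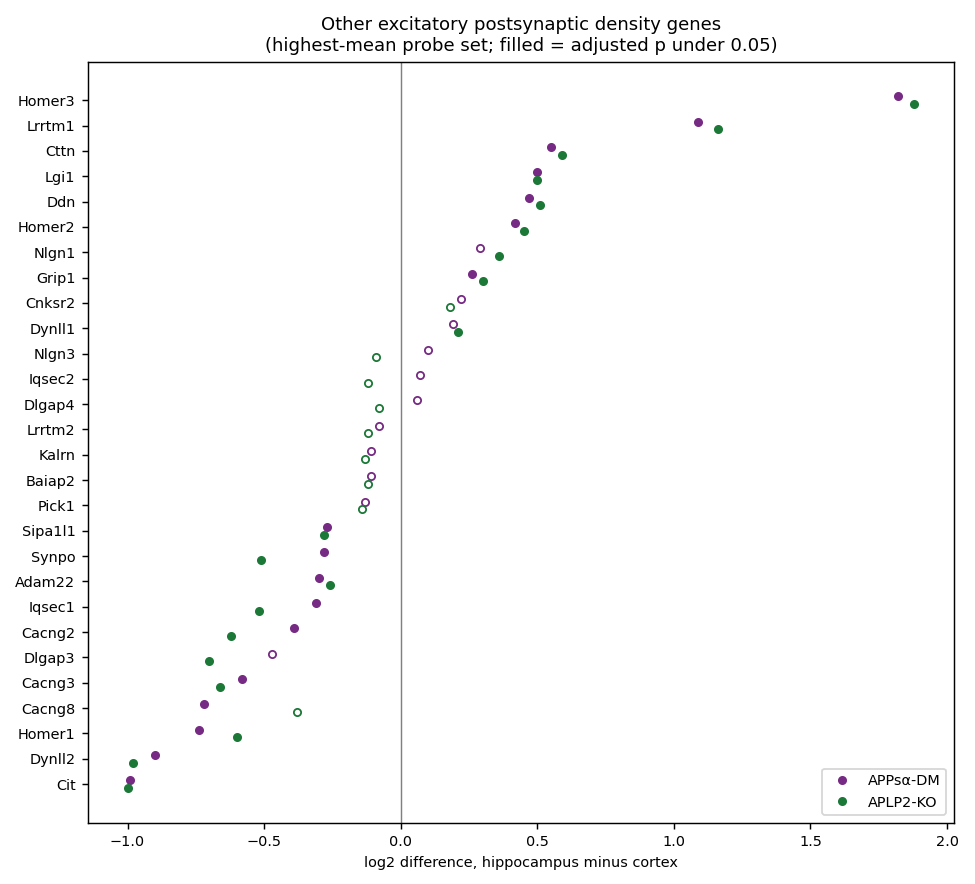
Difference in level, hippocampus minus cortex (x axis, log2 units), of 28 other genes of the excitatory postsynaptic density (y axis), with APPsα-DM drawn above APLP2-KO for each gene; filled points have a limma adjusted p under 0.05. The values run from Homer3 at 1.82 and 1.88 to Cit at -0.99 in APPsα-DM, with filled points on both sides of 0.

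Regulators of PSD-95 palmitoylation and partners of the membrane guanylate kinases were all measured, 15 of 15. None differed by genotype at an adjusted limma p under 0.05. At an unadjusted limma p under 0.05 there were 0 in hippocampus (4.11% of all probe sets) and 2 in cortex (4.5%). These 2 were Zdhhc3 (-0.17 ± 0.07) and Abhd17a (-0.15 ± 0.06). Between tissues 2 were higher and 7 lower in hippocampus in each genotype. Over all genes, dim ones included, 6.59% were higher and 7.34% lower in APPsα-DM, and 6.78% higher and 9.7% lower in APLP2-KO. Abhd17c, of a family of enzymes that remove palmitate from PSD-95, rose by 0.63 ± 0.07 in APPsα-DM and 0.56 ± 0.07 in APLP2-KO, and Zdhhc8, an enzyme that adds palmitate, fell by 0.53 ± 0.08 in APPsα-DM and 0.64 ± 0.08 in APLP2-KO. The Lin7 adaptors were split, with Lin7c higher by 0.63 ± 0.08 in APPsα-DM and 0.59 ± 0.08 in APLP2-KO, Lin7a lower by a difference of -0.38 ± 0.07 in APPsα-DM and -0.46 ± 0.07 in APLP2-KO, and Lin7b by -0.38 ± 0.06 in APPsα-DM and -0.41 ± 0.06 in APLP2-KO.

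The scaffold of inhibitory synapses, built on gephyrin, was taken as the counterpart, with 6 genes that have a probe set used here. None passed an adjusted limma p of 0.05 between the genotypes, and none reached an unadjusted limma p under 0.05 in either tissue. In APPsα-DM minus APLP2-KO all 6 were below 0 in cortex (median -0.06) and 2 in hippocampus (median 0.06). Between tissues 2 were higher and 1 lower in hippocampus in APPsα-DM, and 1 higher and 1 lower in APLP2-KO. Over all genes, dim ones included, 6.59% were higher and 7.34% lower in APPsα-DM, and 6.78% higher and 9.7% lower in APLP2-KO. Slitrk3, an adhesion protein of inhibitory synapses, rose by 0.48 ± 0.09 in APPsα-DM and 0.35 ± 0.09 in APLP2-KO, and Magi1 fell by 0.47 ± 0.09 in APPsα-DM and 0.54 ± 0.09 in APLP2-KO.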

How the data were processed

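Expression was measured on 12 Affymetrix arrays. The deposited values are on a log2 scale; RMA and the affy package are named in the submitters' processing notes, with no version given there. As generally described, RMA corrects background, normalises arrays by quantiles and summarises each probe set. Array medians lay between 5.86 and 5.91. The 64 control probe sets were left out of the tests, which ran on the other 45037 without a filter on dim signals. Symbols came from the platform annotation, in which 34945 probe sets had 1 symbol.

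In R 4.3.3 with limma 3.58.1, lmFit and eBayes fitted the 4 group means over the 12 arrays, and Benjamini-Hochberg adjustment ran over all 45037 probe sets (threshold 0.05, two-sided). The mean genotype effect used the average of the tissues of each genotype and replicate number. Because the labels do not tie replicate numbers to animals, p-values measure the spread between these arrays, and 3 per group limits the precision. The fit was tested on simulated data. Every probe set of every member is drawn in the figures of genotype and tissue differences, while the text gives values for a part of them. Per list up to 4 genes with the smallest p are named, other named genes being marked as such. The members, lists and tests were chosen with earlier results of these data known. Alternatives covered the dim-signal filter, normalisation, centring, variance prior, array weights, replicate blocks, 1 probe set per gene, fewer arrays and, added after seeing the data, the 3′ minus 5′ control signal. Promoters came from RefSeq (GRCm38.p6).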

Additional observations from a re-analysis of the deposited data

How the results depend on the processing

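Dlg1 probe sets 1 and 3, Dlg2 probe set 3 and Dlg4 probe set 1 were lower in hippocampus at an adjusted limma p under 0.05 in both genotypes in every setting run (23 or 24 each), and no called value changed sign. The count of member probe sets called between the genotypes was 0 in every setting. In APLP2-KO the count called between tissues was 7, and it was 4 when 1 probe set per gene was tested, since 8 probe sets then remained; leaving out 1 array at a time it ran from 4 (without replicate 2 of APLP2-KO cortex) to 8, and in APPsα-DM it was 6 each time. Without the 2 cortex arrays high in the choroid plexus transcript Ttr, Dlgap1 probe set 5 was no longer called (0.75, limma adjusted p = 0.052 in APPsα-DM, and 0.69, adjusted p = 0.0565 in APLP2-KO). Dlg4 probe set 2 was no longer called in APLP2-KO (-1.13, limma adjusted p = 0.0816). With all arrays these differences were 0.78, 0.71 and -1.05. Fewer arrays entered this fit, and why the calls were lost was not tested. With the replicate block within genotype the counts were 6 in APPsα-DM and 7 in APLP2-KO; with the number as a replicate block across genotypes they were 6 and 6, Dlg4 probe set 2 being lost in APLP2-KO (adjusted p = 0.0596). Deviations of cortex and hippocampus arrays with the same number correlated at 0.02 to 0.08 in APPsα-DM and 0.11 to 0.16 in APLP2-KO. Among the hippocampus arrays of its genotype, each cortex array correlated best with the one of its own number. This was a hint from the data and not the design. Across genotypes the correlations ran from -0.25 to 0.21, so the numbers were not taken as pairs. Probe sets near the dim end (Shank1, Dlg1 probe set 2, Dlgap1 probe set 5) are limited by their signal.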
